A study of Rattus norvegicus with 10 samples.

Results

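The 8 genes described here encode proteins that handle glucose in the liver. They carry it across the hepatocyte membrane (Slc2a2) or act in its breakdown to pyruvate and lactate (Gpi, Pklr, Ldha). Others set the level of a regulator of that route (Pfkfb1) or store glucose as, or release it from, glycogen (Pgm1, Gys2, Pygl). All 8 were chosen by name, and every probe set that the array annotation gives to exactly 1 of these symbols was taken. This gave 10 probe sets of 15899 on the array, with 2 each for Pklr and Pgm1 and 1 for each other gene. All 10 were bright enough to be tested.

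The samples were livers of Wistar Han rats (CRL:WI (Han)) aged 6 to 8 weeks, 1 array per animal. Of the 10 rats, 5 were given RG3487 at 180 mg/kg by gavage and 5 were given the vehicle, deionized water, in the same volume of 5 ml/kg. RG3487 is a compound known to bind the alpha-7 nicotinic acetylcholine receptor. The sample labels put sampling at 24 h after the dose, whereas the text of the series says 2 h. All rats shared strain, age range, housing in groups of 5 and the lobe sampled, but neither their sex and feeding state nor the cage of each rat is given.

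In the liver, glucose enters and leaves mainly through GLUT2, the product of Slc2a2, and is trapped as glucose 6-phosphate, which stands at the branch between glycolysis and glycogen. Glycogen synthase and glycogen phosphorylase (liver forms Gys2 and Pygl) build and break the polymer, with phosphoglucomutase (Pgm1) joining it to the glucose 6-phosphate pool. In glycolysis the level of fructose 2,6-bisphosphate, set by the bifunctional enzyme that Pfkfb1 encodes, speeds phosphofructokinase and slows the opposing fructose bisphosphatase, and pyruvate kinase (Pklr) closes the pathway. Much of this control acts on the enzymes through phosphorylation and metabolites, which arrays of RNA do not read.

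The arrays were scaled alike, with mean signals between 330 and 332, and their log2 signals correlated at 0.979 to 0.986 within and 0.967 to 0.978 between the groups. Hepatocyte markers were bright, and their summed signal over 9 genes was 59593 to 63398 in the vehicle group and 48742 to 59100 with RG3487. Its mean fell by 11.9% (exact two-sided permutation p = 0.00794, adjusted p = 0.0278 over 7 marker lists), and 6 of the 9 genes were lower. The summed endothelial markers (5 genes, 1 of them lower) fell by 15.4%, from 2300 to 2569 in vehicle livers to 1949 to 2277, with the same p-values. The lower gene, Lyve1, went from a mean of 1166 to 907 and so made up much of this fall. Pecam1, Kdr, Stab2 and Tek had negative changes that did not pass (log2 change -0.25 ± 0.11, -0.13 ± 0.07, -0.11 ± 0.10 and -0.10 ± 0.09 SE). Without any 1 vehicle rat the groups stayed separate and the adjusted p of both sums was 0.0556, because 2 of the 126 regroupings then left were as extreme. With arrays scaled to the hybridization controls neither passed (adjusted p = 0.849 and 0.681), and marker sums were not run under quantile normalization. Sums of Kupffer cell, stellate cell, cholangiocyte, red blood cell and leukocyte markers did not pass (adjusted p = 0.278 to 0.865). The cholangiocyte markers Krt19 and Spp1, the stellate cell markers Des, Pdgfrb and Acta2 and the leukocyte marker S100a9 were below the filter on dim probe sets. The red blood cell and leukocyte sums rest on 2 genes each. Within the Kupffer cell list Lyz2 rose (log2 change 0.65 ± 0.16 SE) while Cd163 (-0.37 ± 0.07) and C1qb (-0.23 ± 0.08) fell, and within the stellate cell list Col1a1 rose (0.35 ± 0.10) while Dcn fell (-0.52 ± 0.10). These genes and Lyve1 were named after their values were seen. The part of these markers in the results below was not tested, and with whole liver RNA, fewer cells of a type and less RNA per cell cannot be told apart.

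Slc2a2 rose and Pfkfb1 fell with RG3487, and neither call depended on the scaling of the arrays. Pgm1 rose on 1 of its 2 probe sets. The remaining 5 genes, Pklr, Ldha, Gys2, Pygl and Gpi, did not pass the test. In all, 2 of 10 probe sets were higher and 1 was lower at a Benjamini-Hochberg adjusted p under 0.05 in limma. Over all 11894 probe sets tested, 20.5% were higher and 7.16% were lower (27.7% in either direction), so the members' shares of 20% and 10% lay near the background. Their median log2 change was 0.10, against 0.08 for all probe sets tested. Changes are differences of log2 of signal plus 16, a scale on which the change of a dim gene comes out smaller than the ratio of its signals.

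**Figure D1:**
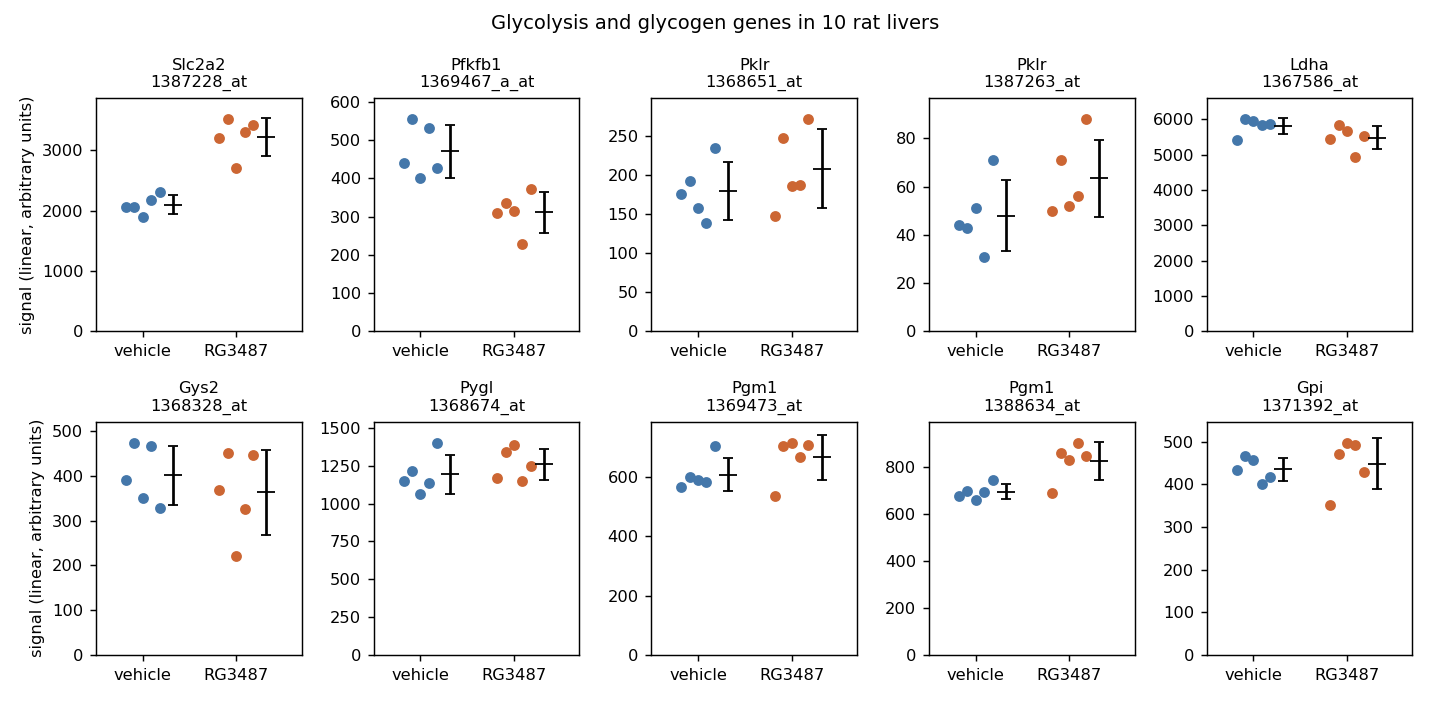
Signal of the 10 probe sets in each liver (y axis, linear array signal in arbitrary units from 0; blue, 5 vehicle rats; orange, 5 RG3487 rats, each drawn left to right from rat 1 to rat 5; black, mean and SD). The groups are separate for Slc2a2, at 1885 to 2305 against 2700 to 3514, and for Pfkfb1, at 400 to 555 against 227 to 372, and overlap for the other 8 probe sets.

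Slc2a2 encodes the low-affinity glucose transporter of hepatocytes and pancreatic beta cells. Its probe set 1387228_at read 2059, 2055, 1885, 2179 and 2305 in vehicle rats 1 to 5. With RG3487 it read 3196, 3514, 2700, 3297 and 3409. Every treated liver lay above every vehicle liver, with a gap between the highest vehicle value and the lowest treated value. The mean went from 2097 ± 157 (SD, n = 5) to 3223 ± 316 (n = 5), a 1.53-fold rise (log2 change 0.61 ± 0.08 SE, 95% interval 0.45 to 0.78, limma adjusted p = 0.000234). Of all probe sets tested, 3.63% changed at least as much in either direction.

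Pfkfb1 encodes the liver form of the enzyme that makes and removes fructose 2,6-bisphosphate. Its probe set, 1369467_a_at, is of a kind that reads several transcript variants of a gene, and which variants changed cannot be read from it. It gave 440, 555, 400, 532 and 426 in the vehicle rats. With RG3487 it gave 309, 335, 314, 227 and 372, so that the highest treated liver stayed below the lowest vehicle liver. The mean moved from 471 ± 69 to 311 ± 53 (SD, n = 5 each), 1.49-fold lower (log2 change -0.58 ± 0.13 SE, 95% interval -0.85 to -0.30, limma adjusted p = 0.00571).

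Groups that do not overlap were seen in 2 of the 10 probe sets, Slc2a2 and Pfkfb1, beside 18.4% of all probe sets tested. The stretches upstream of these genes are shown because they were the clearest changes and went in opposite directions. Each is the 250 bases before the RefSeq transcription start in build GRCr8, on the strand of the gene, at chr2:113540120-113540369 (plus strand) for Slc2a2 and chrX:22941926-22942175 (plus strand) for Pfkfb1.
Slc2a2: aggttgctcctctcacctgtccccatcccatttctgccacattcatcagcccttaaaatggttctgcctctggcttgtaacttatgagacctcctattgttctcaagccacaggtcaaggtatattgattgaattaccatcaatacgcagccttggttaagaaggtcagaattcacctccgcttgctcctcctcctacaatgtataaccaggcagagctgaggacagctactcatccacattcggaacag
Pfkfb1: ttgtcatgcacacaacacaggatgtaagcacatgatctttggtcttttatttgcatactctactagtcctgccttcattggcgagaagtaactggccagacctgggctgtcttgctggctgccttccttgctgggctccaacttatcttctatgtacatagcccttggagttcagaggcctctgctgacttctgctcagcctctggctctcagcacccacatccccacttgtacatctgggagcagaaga

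Both strands of these windows were searched for the E-box CACGTG, the hypoxia response core ACGTG, which the E-box contains, the antioxidant response core TGACNNNGC, and 2 paired elements. The carbohydrate response pair is CACGNG and CNCGTG with 5 bases between them, and the nuclear receptor repeat is AGGNCA given again after 1 base. None of the 5 patterns occurs in the Slc2a2 or the Pfkfb1 window, which says only that these letters are not in these 250 bases. All 8 genes had a promoter entry, and over 33469 promoters of the same length the E-box occurs in 5.59%, the hypoxia core in 16.6%, the antioxidant core in 10.1%, the repeat in 0.368% and the carbohydrate pair in 0.0209%. Of the members, Ldha holds the E-box and also the hypoxia core, which is found in Pygl and Pgm1 too, and none holds the antioxidant core.

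Pklr encodes the pyruvate kinase of liver and red cells, a textbook target of the glucose-sensing factor ChREBP (gene Mlxipl). Its upstream window is shown because it holds the carbohydrate response pair, in capitals, which starts 168 bases before the RefSeq start (GRCr8, chr2:176841014-176841263, plus strand). Only 7 of the 33469 promoters hold this pattern.
Pklr: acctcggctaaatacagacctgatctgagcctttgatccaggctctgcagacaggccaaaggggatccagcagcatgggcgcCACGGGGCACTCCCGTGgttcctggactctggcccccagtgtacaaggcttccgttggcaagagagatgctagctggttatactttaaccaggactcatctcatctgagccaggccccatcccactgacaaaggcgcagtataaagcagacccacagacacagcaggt

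On the brighter Pklr probe set, 1368651_at, the vehicle rats gave 175, 192, 157, 138 and 234 and the RG3487 rats 147, 247, 185, 187 and 271. Treated rats 2 and 5 lay above every vehicle liver, and the other treated livers lay within the vehicle range. The mean was 179 ± 37 and 207 ± 50 (SD, n = 5 each; log2 change 0.18 ± 0.16 SE, limma adjusted p = 0.415), with a 95% interval of 0.893- to 1.45-fold. The dimmer probe set, 1387263_at, gave 48.0 ± 14.7 and 63.4 ± 16 (log2 change 0.32 ± 0.17, adjusted p = 0.17; interval 0.971- to 1.6-fold). Rat 5 was the highest of its group on both probe sets, with 234 and 71 in the vehicle group and 271 and 88 with RG3487. Mlxipl itself read 94.6 ± 9.2 and 108 ± 20 and did not pass (log2 change 0.16 ± 0.11, adjusted p = 0.299).

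Gpi and Ldha stand at the entry and the exit of glycolysis. Gpi, which interconverts glucose 6-phosphate and fructose 6-phosphate, gave 433, 466, 457, 400 and 418 in vehicle rats and 352, 470, 497, 493 and 429 with RG3487. The treated values spread on both sides of the vehicle values, and the log2 change was 0.03 ± 0.09 SE (limma adjusted p = 0.808; interval 0.892- to 1.17-fold). Ldha, the lactate dehydrogenase subunit that prevails in liver, was 5807 ± 233 and 5482 ± 332 (SD, n = 5 each), with vehicle livers at 5410 to 6002 and treated livers at 4942 to 5823. Its log2 change of -0.08 ± 0.05 did not pass (adjusted p = 0.233; interval 0.874- to 1.02-fold), and turned positive with quantile normalization (0.07) and with scaling to the hybridization controls (0.11).

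Pgm1 moves phosphate between positions 1 and 6 of glucose and so serves glycogen making and glycogen breakdown alike. Its brighter probe set, 1388634_at, read 678, 700, 660, 697 and 747 in vehicle rats. With RG3487 it read 691, 861, 831, 905 and 850, so that 4 treated livers lay above all vehicle livers and rat 1 lay among them. The mean rose from 696 ± 33 to 828 ± 81 (SD, n = 5 each), 1.18-fold (log2 change 0.24 ± 0.07 SE, limma adjusted p = 0.0282). The other probe set, 1369473_at, gave 565, 599, 588, 582 and 703 against 534, 705, 714, 666 and 707 and did not pass (log2 change 0.12 ± 0.09, adjusted p = 0.313). The call on 1388634_at was also lost with quantile normalization (0.17, adjusted p = 0.119), with arrays centred on their median (0.14, adjusted p = 0.2) and without vehicle rat 1, 3 or 4 or RG3487 rat 2, 4 or 5 (adjusted p = 0.051 to 0.0699).

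Gys2 encodes the glycogen synthase of liver. Its upstream window (GRCr8, chr4:177137237-177137486, minus strand) is shown because it holds the nuclear receptor repeat, in capitals, which starts 80 bases before the RefSeq start. This kind of repeat is known as a binding pattern of HNF4 alpha and of PPAR alpha with its partner RXR, and 123 of the 33469 promoters hold it.
Gys2: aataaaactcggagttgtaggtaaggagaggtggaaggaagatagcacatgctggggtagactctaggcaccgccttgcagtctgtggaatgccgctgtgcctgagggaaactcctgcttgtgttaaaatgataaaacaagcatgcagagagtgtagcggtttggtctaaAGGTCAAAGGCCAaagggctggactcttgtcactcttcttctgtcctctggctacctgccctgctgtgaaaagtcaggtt

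Gys2 read 390, 474, 350, 466 and 329 in the vehicle rats and 369, 452, 222, 327 and 447 with RG3487. Treated livers held both the lowest value, in rat 3, and values near the top of the vehicle range. The log2 change was -0.17 ± 0.17 SE (limma adjusted p = 0.5), and scaling to the hybridization controls gave 0.03. Without RG3487 rat 3 the change was -0.01 (adjusted p = 0.968). Pygl, which releases glucose 1-phosphate from glycogen, read 1152, 1213, 1064, 1136 and 1402 in vehicle rats and 1170, 1342, 1385, 1153 and 1249 with RG3487. Its groups overlapped, with a log2 change of 0.08 ± 0.08 (adjusted p = 0.48; interval 0.938- to 1.19-fold), which was -0.02 with arrays centred on their median. Thus neither the gene for making glycogen nor the gene for breaking it passed, but the 95% interval for Gys2 runs from 0.688- to 1.16-fold.

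The members differed in how much they varied between animals of the same group. Ldha was the steadiest, with an SD on the log2 scale of 0.06 in the vehicle group and 0.09 with RG3487. The dimmer Pklr probe set varied most in the vehicle group (0.32) and Gys2 most with RG3487 (0.40). The median SD of the members was 0.13 in the vehicle group and 0.19 with RG3487, beside 0.14 in each group for all probe sets tested. Vehicle rat 5 gave the highest vehicle signal on 6 of the 10 probe sets, those of Slc2a2, Pklr, Pygl and Pgm1, while over all probe sets tested it was the highest in 13.8%. The same rat was the lowest of its group for Gys2. RG3487 rat 1 gave the lowest treated signal on 5 of the 10, those of Pklr, Pgm1 and Gpi, and on 18.6% of all probe sets tested.

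**Figure D2:**
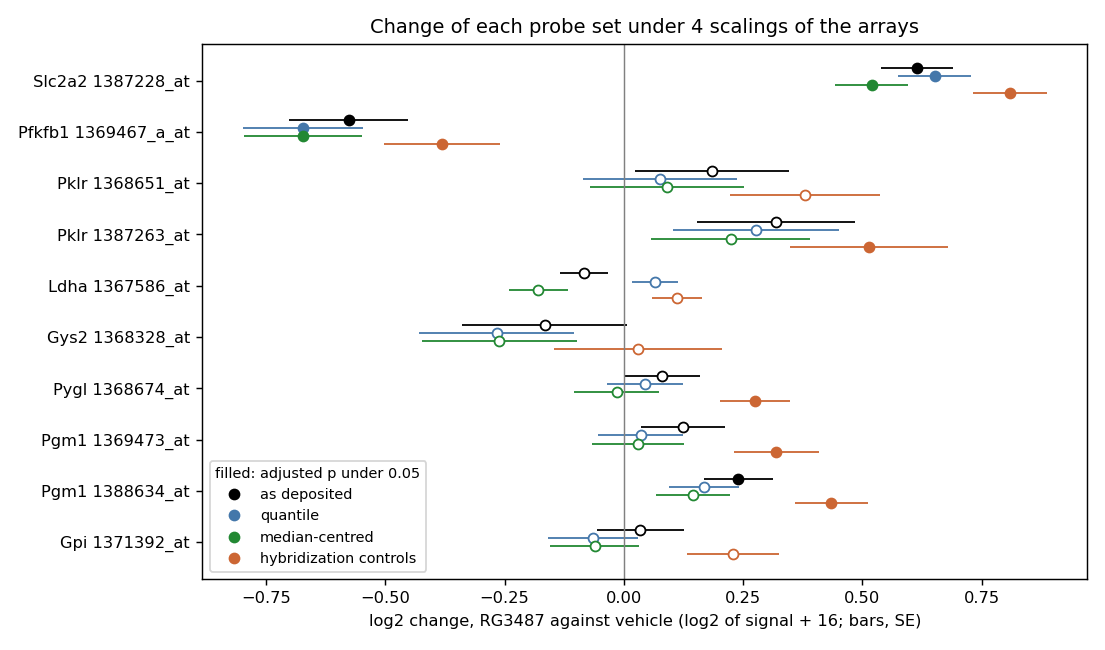
Log2 change (x axis, RG3487 against vehicle on log2 of signal plus 16; bars, SE) of each probe set with the signals as deposited, after quantile normalization, after centring each array on its median and after scaling to the added hybridization controls. Filled points passed at an adjusted p under 0.05. Slc2a2 stays between 0.52 and 0.81 and Pfkfb1 between -0.67 and -0.38, while Ldha, Gys2, Pygl and Gpi each take both signs.

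The small changes depended on how the arrays were scaled. The median change of all probe sets tested was 0.08 as deposited, 0.01 with quantile normalization, -0.01 with arrays centred and 0.28 with scaling to the hybridization controls. These are foreign transcripts, bacterial and phage, spiked into every sample. The share of calls that were higher was 74.1% as deposited, 54.5% with quantile normalization, 45.1% with centring and 95% with the hybridization controls. The mean log2 signal of those controls was 9.90 for vehicle livers and 9.71 for treated livers (exact permutation p = 0.00794). Equal addition of those controls is not shown in the sources used here. Relative to the median of all probe sets as deposited, Slc2a2 changed by 0.53, Pfkfb1 by -0.66 and the called Pgm1 probe set by 0.16. With scaling to the hybridization controls 5 member probe sets were higher (Slc2a2, Pygl, both of Pgm1 and the dimmer of Pklr), and with quantile normalization or centring only that of Slc2a2 was.

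The other genes of these pathways were taken from 5 lists, with each gene read by its brightest probe set that had 1 symbol. Of 105 symbols listed, 56 had such a probe set above the filter, of which 9 were higher and 9 lower, beside 22.3% higher and 7.4% lower among all 7727 genes. Genes for hexokinase 1 (Hk1), the muscle type of pyruvate kinase (Pkm), the glucose 6-phosphatase catalytic subunit (G6pc1), muscle glycogen synthase (Gys1), Slc2a1 and Ppp1r3c had none and were not analysed here.

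The glycolysis list also holds the fructose enzyme genes Khk and Tkfc. Of its 12 genes tested, 6 were higher, Tkfc among them, and 0 lower, and their median change was 0.20, beside 0.09 over all genes. Triose phosphate isomerase (Tpi1) rose from 2028 ± 116 to 2732 ± 208 (SD, n = 5 each; log2 change 0.43 ± 0.06 SE, limma adjusted p = 0.000652). Phosphoglycerate mutase (Pgam1) rose from 1753 ± 43 to 2202 ± 52 (0.33 ± 0.04, adjusted p = 0.000335) and enolase 1 (Eno1) from 1428 ± 49 to 1770 ± 102 (0.31 ± 0.05, adjusted p = 0.00161). These enzymes act between fructose 1,6-bisphosphate and pyruvate and run in both directions, so glycolysis and gluconeogenesis share them. Phosphoglycerate kinase (Pgk1), another shared enzyme, named after its values were seen, did not pass on its brighter probe set (3246 ± 198 to 3084 ± 108; -0.07 ± 0.05, adjusted p = 0.312) or on its dimmer one (-0.03 ± 0.07, adjusted p = 0.805). Adpgk, which phosphorylates glucose with ADP, rose by 0.40 ± 0.07 on its brighter probe set. The dimmer Adpgk probe set did not pass (0.26 ± 0.19, adjusted p = 0.305). Tkfc, which phosphorylates the glyceraldehyde made from fructose, rose by 0.88 ± 0.18 (378 ± 104 to 693 ± 115). The sixth was aldolase A (Aldoa), named after its value was seen, at 0.28 ± 0.06. Groups that did not overlap were seen in these 6 of the 12 genes, beside 20.2% of all genes, and the list held 6 to 9 higher genes under all alternatives run. Pfkl, the liver subunit of phosphofructokinase, did not pass (0.07 ± 0.08, adjusted p = 0.519), nor did Ldhb, the other main lactate dehydrogenase subunit (-0.27 ± 0.16, adjusted p = 0.224).

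Of 12 other glycogen genes tested, 0 were higher and 1 was lower. The one that fell, Gaa, encodes the acid glucosidase that breaks glycogen in lysosomes, outside the route of phosphorylase. Its brighter probe set went from 277 ± 36 to 205 ± 35 (log2 change -0.41 ± 0.12 SE, limma adjusted p = 0.0204). That call was lost with scaling to the hybridization controls (adjusted p = 0.112) and without vehicle rat 4 or RG3487 rat 5 (0.0504 and 0.053). The dimmer Gaa probe set fell from 87 ± 7.2 to 56.2 ± 8.9 (-0.52 ± 0.10, adjusted p = 0.00253), and its groups did not overlap. The branching enzyme gene Gbe1 read 1505 to 2139 in vehicle livers and 2150 to 2315 with RG3487. These ranges did not overlap, yet the change missed the threshold (0.25 ± 0.09, adjusted p = 0.0546), and it passed in 7 alternatives. Ugp2, which makes the UDP-glucose that glycogen synthase uses, was 0.07 ± 0.11 (adjusted p = 0.635). Ppp1r3b, the liver subunit that targets protein phosphatase 1 to glycogen, ranged from 123 to 514 among vehicle livers and from 192 to 554 with RG3487, and its change was 0.31 ± 0.36 (adjusted p = 0.541). With scaling to the hybridization controls, 6 genes of this list were higher and 0 lower.

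Genes of the opposing route, gluconeogenesis, fell in 4 of 6 tested and rose in 0, with a median change of -0.20. Over all genes 7.4% were lower and 22.3% higher, with a median change of 0.09. Groups did not overlap in 3 of the 6, beside 20.2% of all genes. The aminotransferase gene Got1 went from 1701 ± 303 to 928 ± 400 (log2 change -0.93 ± 0.23 SE, limma adjusted p = 0.0106) and the pyruvate carboxylase gene Pc from 539 ± 40 to 365 ± 51 (-0.55 ± 0.09, adjusted p = 0.00133). Fbp1, which reverses the phosphofructokinase step, changed by -0.21 ± 0.04 (adjusted p = 0.00534) and Pck1 by -0.20 ± 0.04 (adjusted p = 0.00669). The summed hepatocyte markers changed by -0.18 on the log2 scale, and their part in these falls was not tested. The calls on Fbp1 and Pck1 were lost with quantile normalization (adjusted p = 0.0959 and 0.668) and with scaling to the hybridization controls (0.829 and 0.945).

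Among 13 genes of pyruvate fate and lactate transport, 2 were higher and 2 lower, which became 0 and 5 with arrays centred and 4 and 1 with scaling to the hybridization controls. Pdk4, a kinase that shuts off pyruvate dehydrogenase, fell on its brighter probe set from 1073 ± 364 to 341 ± 137 (log2 change -1.64 ± 0.31 SE, limma adjusted p = 0.0025). The dimmer Pdk4 probe set fell less, from 271 ± 67 to 139 ± 45 (-0.91 ± 0.22, adjusted p = 0.00909), so the size of the fall is uncertain. Mpc2, a subunit of the mitochondrial pyruvate carrier, fell by 0.41 ± 0.09, and the pyruvate dehydrogenase subunit genes Pdhb and Pdhx rose by 0.24 ± 0.06 and 0.29 ± 0.09. The Mpc2 call was lost with the hybridization controls (adjusted p = 0.0716), that of Pdhb with centring (0.0958), and that of Pdhx with quantile normalization or centring and without vehicle rat 2 or 4 or RG3487 rat 4 or 5 (0.0524 to 0.148).

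Of 13 genes of glucose entry and its regulators, 1 was higher and 2 were lower, which became 7 and 1 with scaling to the hybridization controls. Irs2, an adaptor of the insulin receptor, fell from 99.2 ± 29.6 to 40.2 ± 17.2 (log2 change -1.05 ± 0.23 SE, limma adjusted p = 0.00618). Vehicle livers read 59 to 128 and treated livers 18 to 59, so the groups met at 59. The treated mean lay near that of an Insr probe set (39.4) that the filter on dim probe sets left out. The treated Irs2 values may hold background, so the size of the fall is uncertain. The Irs2 change ran from -1.35 to -0.64 over 20 alternatives and passed in each. Txnip, a glucose-induced inhibitor of glucose uptake, fell by 0.34 ± 0.10 (adjusted p = 0.0225), a call lost without vehicle rat 4 or RG3487 rat 4, with the hybridization controls, and when replicate number was blocked (adjusted p = 0.0542, 0.0563, 0.241 and 0.0591). Hnf4a, a nuclear receptor of hepatocytes, rose from 2313 ± 192 to 2826 ± 165 (0.29 ± 0.06, adjusted p = 0.00653), and did not pass with arrays centred (adjusted p = 0.07). Gckr, a regulatory protein of hepatocyte glucose metabolism, missed the threshold (-0.10 ± 0.06, adjusted p = 0.268), with a positive value (0.10) under scaling to the hybridization controls.

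**Figure D3:**
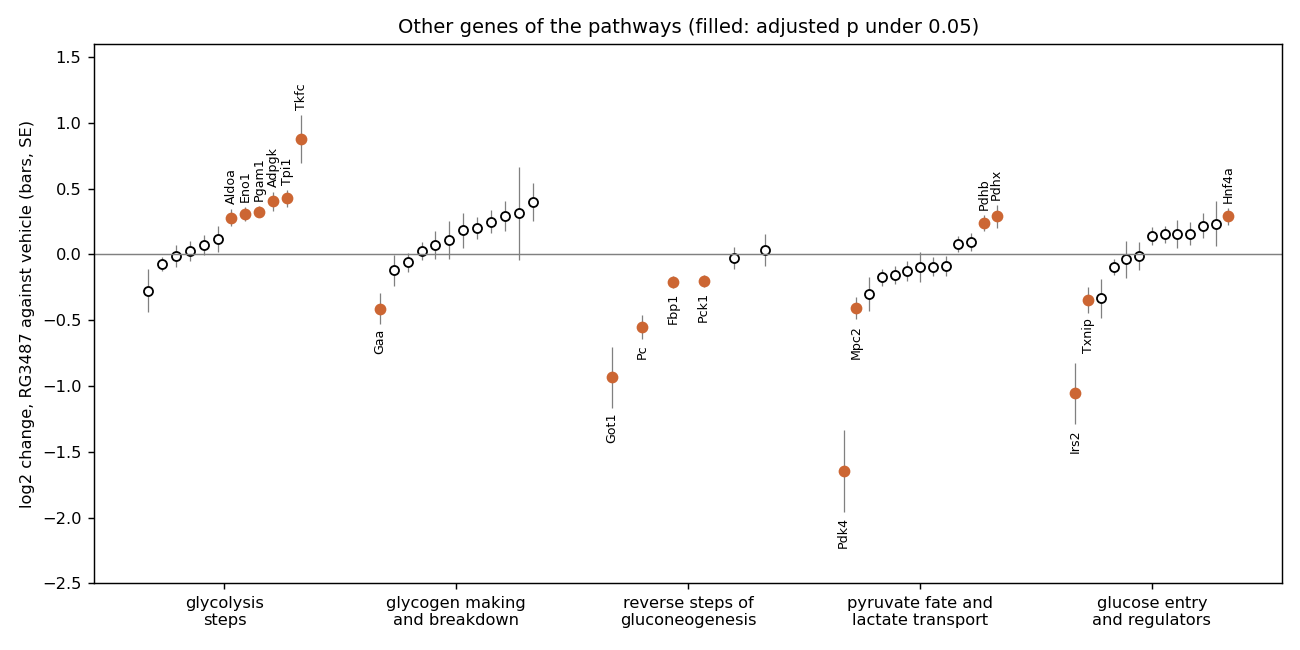
Log2 change (y axis, RG3487 against vehicle; bars, SE) of the 56 other pathway genes tested, grouped by list on the x axis and sorted within each list. Filled, named points passed at an adjusted p under 0.05: 6 genes of the glycolysis list, Tkfc among them, lie above 0 and 4 gluconeogenesis genes lie below 0.

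A linear scaling of an array largely cancels in the ratio of 2 genes on it, and 4 pairs of 6 planned had both genes measured. The log2 ratio of Gys2 to Pygl, glycogen making to breakdown, changed by -0.25 with RG3487, with values relative to the vehicle mean of -0.50 to 0.28 in vehicle livers and -1.02 to 0.09 in treated livers (exact two-sided permutation p = 0.389, adjusted p = 0.389 over 4 pairs). It was -0.05 without RG3487 rat 3 and -0.37 without vehicle rat 5. The ratio of Pklr to Pck1 was 0.38 higher (exact p = 0.0794, adjusted p = 0.159) and that of Ldha to Ldhb 0.19 higher (exact p = 0.341, adjusted p = 0.389), with overlapping groups in each. The ratio of Pfkl to Fbp1, the opposed steps between fructose 6-phosphate and fructose 1,6-bisphosphate, was 0.28 higher with separate groups, at -0.16 to 0.15 in vehicle and 0.21 to 0.33 in treated livers (exact p = 0.00794, the smallest that 252 regroupings can give; adjusted p = 0.0317). Without any 1 RG3487 rat the groups stayed separate and the adjusted p was 0.0635, because 2 of the 126 regroupings then left were as extreme. On the signals as deposited, the ratio shows that these 2 genes changed unequally, not which of them moved. Quantile normalization is not linear and does not cancel in a ratio, and the ratios were not run under it. Under quantile normalization Fbp1 changed by only -0.09 (limma adjusted p = 0.0959). Pfkl (mean signal 78.8 in vehicle and 83.4 in treated livers) and Ldhb (51.6 and 41) were dim. Their values may hold background, so the sizes of the ratio changes that use them are uncertain.

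**Figure D4:**
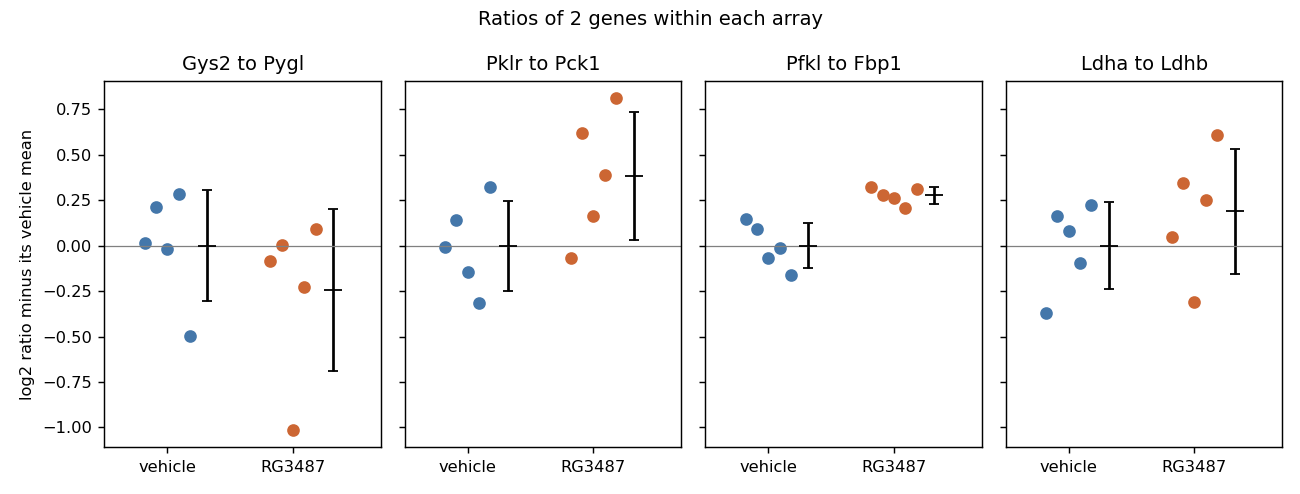
Log2 ratio of 2 genes within each array, less its mean over the vehicle livers (y axis; blue, 5 vehicle rats; orange, 5 RG3487 rats; black, mean and SD). The groups are separate for Pfkl to Fbp1, at -0.16 to 0.15 against 0.21 to 0.33, and overlap for the other 3 pairs.

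The genes whose pattern over the 10 arrays lay closest to each changed member were found from the root mean square difference of log2 values, each less its own vehicle mean. For Slc2a2 these were Map3k20 (difference 0.07; log2 change 0.55 ± 0.07 SE) and Tm2d3 (0.09; 0.56 ± 0.06). For Pfkfb1 they were Flcn (0.14; -0.47 ± 0.12) and Tfr2, a transferrin receptor of liver (0.15; -0.53 ± 0.12). For Pgm1 they were Mterf1 (0.06; 0.21 ± 0.07) and Timm50, a subunit of the mitochondrial protein import machinery (0.06; 0.24 ± 0.07). The measure is small where 2 genes differ little on every array, so genes of like size and direction of change rank first.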

How the data were processed

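Liver RNA of 10 rats was read on Affymetrix rat expression arrays after labelling from 1 ug of total RNA. The deposited values are signal intensities, linear and in whole numbers, made by the authors with MAS5 per the submitters' processing notes; no version is given in the sources used here, nor a scaling target. Equal array means show that the deposited intensities had been scaled. Detection calls were not used, so dim values may hold background. With no reads to count, precision rests on the number of arrays, 5 per group.

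Of 15899 probe sets, 40 controls were left out, and the 25% of the rest with the lowest mean log2 signal, which left 11894 (7727 genes). Log2 of signal plus 16 was fitted with limma 3.58.1 in R 4.3.3 (lmFit, then eBayes with trend) and adjusted by Benjamini-Hochberg over all 11894; p-values are two-sided. The annotation gave 12562 probe sets 1 symbol, 332 several and 2965 none. The code was tested on simulated data. Ratios and marker sums were compared by exact permutation over 252 regroupings of animals.

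The members, lists and tests were chosen with earlier results of these data known. Genes named are all members, up to 5 passing genes of smallest p in each list, a set of partner genes, and the 2 genes of closest pattern to each changed member. Animals carry replicate numbers in the titles but are different rats, so no pairing was used. P-values set the difference between the groups against the spread between animals within them. The cage of each rat is not given, so an effect of cage cannot be told apart from that of RG3487. Promoter sequences are from RefSeq, build GRCr8. Alternatives were other pseudocounts (1 and 64), scalings, filters (none, 50%), variance models, array weights, a replicate block, averaged probe sets and each array left out.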

Additional observations from a re-analysis of the deposited data

Results flagged for a closer look

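Of 92 groups of 5 values checked, 6 held a single value far from the other 4 by Dixon's ratio at a critical value of 0.71, where chance gives about 1 in 20 groups. On the Pgm1 probe set 1369473_at, vehicle rat 5 read 703, above the other vehicle livers, and RG3487 rat 1 read 534, below the other treated livers. Pdhx read 275 in RG3487 rat 5, the highest of its group, and Hnf4a read 2545 in RG3487 rat 2, the lowest of its group. The log2 ratio of Gys2 to Pygl stood at -1.02 relative to the vehicle mean in RG3487 rat 3, which also had the lowest Gys2 signal, 222. The summed red blood cell markers were 3483 in RG3487 rat 2, above the other treated livers.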

How the results depend on the processing

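Slc2a2 and Pfkfb1 kept their direction and their call in all 21 alternatives (log2 change 0.52 to 0.81 and -0.67 to -0.38). Higher member probe sets numbered 1 with quantile normalization, 1 with arrays centred, 5 with the hybridization controls and 1 to 2 with an array left out. All probe sets gave 1429 higher with quantile normalization, 1194 higher and 1454 lower with centring, and 6683 higher and 354 lower with the hybridization controls, under which 26 pathway genes were higher and 4 lower. The cause of these moves beyond the scaling was not tested. Small changes turned sign: Ldha to 0.0654 (quantile) and 0.111 (controls), Gys2 to 0.0292 and Gckr to 0.0992 (controls), Gpi to -0.0646 with quantile normalization and -0.061 with centring, and Pygl to -0.0153, Pfkl to -0.0252 and Ugp2 to -0.0209 (centring). Without single arrays, Gpi ranged from -0.00484 to 0.115 (-0.00202 without RG3487 rat 4) and Ugp2 ranged from -0.00549 to 0.126. The ratio of Pfkl to Fbp1 was 0.24 to 0.32 without single arrays, and its adjusted p rose to 0.0635 without any 1 RG3487 rat, with the groups still separate and fewer regroupings left. Marker sums on the log2 scale were, with the hybridization controls, 0.012 (hepatocyte), 0.182 (Kupffer cell), -0.0465 (endothelial) and 0.0801 (leukocyte), and with centring -0.0323 (stellate). Without single arrays they were -0.22 to -0.15 (hepatocyte), -0.28 to -0.22 (endothelial) and -0.0772 to 0.0332 (Kupffer cell), with adjusted p up to 0.0556 for the hepatocyte and endothelial sums without any 1 vehicle rat, for the same reason. The replicate block kept all member calls and gave the Pfkl to Fbp1 ratio 0.28 (adjusted p = 0.25, where sign permutation cannot go below 0.0625 unadjusted). The numbers do not pair the rats: deviations of same-numbered rats correlated at -0.037 to 0.174, and 1 of 5 vehicle rats correlated best with its own number.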

Other observations

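The array carries 3 control probe sets for Gapdh, the glycolytic dehydrogenase, which were left out of the fit with the other controls. The probe set near the 3 prime end read 3837 ± 148 (SD, n = 5) in the vehicle group and 4033 ± 328 with RG3487 (log2 change 0.07, exact permutation p = 0.198). The middle one read 2495 ± 111 and 2710 ± 149 (0.12, exact p = 0.0238), and the one near the 5 prime end 3196 ± 153 and 3505 ± 243 (0.13, exact p = 0.0397). These 3 p-values are unadjusted and the probe sets read 1 transcript. The ratio of 3 prime to 5 prime signal, a common measure of RNA integrity, was 1.20 ± 0.04 and 1.15 ± 0.03 for Gapdh (exact p = 0.0556) and 3.42 ± 0.26 and 3.10 ± 0.30 for beta-actin (exact p = 0.119).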
